A study of Mus musculus with 18 samples.

Results

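The Schlafen genes Slfn1, Slfn2, Slfn3, Slfn4, Slfn5, Slfn8 and Slfn9 were followed by RNA-seq in macrophages grown from mouse bone marrow (BMDMs). They are 7 of the 50600 genes in the table, taken by their symbols, and the family was selected on a measured value, since Slfn9 had the leading LPS by genotype difference in these libraries. All 7 passed the filter on low counts, among 15663 genes that did. For Slfn9 the values that share libraries with that choice are therefore given as a description with no test, and the LPS by genotype difference is a description for all 7 genes. BMDMs were grown from the marrow of WT and IRF5-/- (IRF5 KO) mice for 8 days in GM-CSF, and 6 groups of 3 biological replicates were sequenced. In each genotype 1 group was unstimulated with DMSO, 1 received LPS, a bacterial cell wall product, at 100 ng/ml for 2 h after DMSO, and 1 received LPS after 1 h with 3.5 μM defactinib, an inhibitor of the kinases PYK2 (gene Ptk2b) and FAK (gene Ptk2). The design asks what the inhibitor does to LPS-induced transcripts with and without IRF5. The titles give DMSO for the unstimulated libraries, while the column names of the table call them untreated.

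Schlafen genes form a family that expanded in rodents and is known for induction by type I interferons. Their proteins share a core domain that binds or cuts RNA in several members, and they are sorted by length into short proteins (Slfn1, Slfn2), intermediate proteins (Slfn3, Slfn4) and long proteins with an added helicase-like region (Slfn5, Slfn8, Slfn9). In lymphocytes and myeloid cells the family is known for keeping cells quiescent and for a role in defence against infection. Interferon regulatory factor 5 (IRF5) is a transcription factor that acts downstream of the LPS receptor in macrophages.

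Counted read pairs ranged from 39282181 to 61949143 per library, so that the lowest count of any member in any library was 48 (Slfn3, WT LPS defactinib replicate 2). Irf5, the deleted gene, was at 587, 606 and 650 CPM (counts scaled to the size of the library) in unstimulated WT libraries and at 335, 397 and 364 CPM in unstimulated IRF5 KO libraries. After LPS the Irf5 groups overlapped, with 434 to 475 CPM in WT and 345 to 435 CPM in IRF5 KO. Under LPS with defactinib Irf5 was at 213, 234 and 379 CPM in WT and at 364, 392 and 353 CPM in IRF5 KO. Counts over the whole gene do not show which exons were lost, so this is no check of the labels. All 6 macrophage markers were detected in every library, the lowest at 25.7 CPM (Mertk). Their sum was 9447 to 9795 CPM at rest, 9108 to 9580 CPM after LPS and 10320 to 14719 CPM after LPS with defactinib in WT, and 9859 to 14021, 9161 to 11708 and 17151 to 18075 CPM in IRF5 KO. The T cell genes Cd3e, Cd3d, Cd3g and Trac and all 6 B and NK cell markers stayed under 1 CPM. Other marker lists moved with groups. The sum of 6 dendritic cell markers was 365 to 477 CPM in WT LPS DMSO and 101 to 109 CPM in unstimulated WT, mostly Zbtb46 and Ccr7, with Xcr1 and Siglech under 1 CPM throughout. That sum was 36.9 to 76.4 CPM in WT LPS defactinib, below rest as were most Schlafen genes. In IRF5 KO it was 90.0 to 121 CPM at rest, 153 to 236 CPM after LPS and 224 to 239 CPM after LPS with defactinib, where most Schlafen genes were below rest. The sum of 6 mast cell and basophil markers was 42.7 to 72.4 CPM in IRF5 KO and 7.89 to 15.5 CPM in WT libraries, with Fcer1a, Mcpt8 and Ms4a2 under 1 CPM. The sum of 7 neutrophil markers was 51.9 to 71.7 CPM in unstimulated WT and 111 to 214 CPM in WT LPS DMSO, but also 110 to 147 CPM in WT LPS defactinib, and in IRF5 KO it was 63.4 to 74.3 CPM at rest, 139 to 161 CPM after LPS and 137 to 161 CPM after LPS with defactinib. In WT LPS defactinib and both IRF5 KO LPS groups most Schlafen genes were below rest in at least 2 of 3 libraries. The sum of 6 T cell markers, with Lck, was 5.36 to 6.96 CPM in WT LPS DMSO and at most 1.93 CPM elsewhere. The part of these cells in the results was not tested. In bulk RNA, fewer cells of a type and less RNA per cell cannot be told apart.

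A pair of libraries stood apart from their groups. IRF5 KO LPS DMSO replicate 3 correlated with replicates 1 and 2 of its group at r = 0.932 over the tested genes, against 0.992 between those replicates, and was most like an unstimulated IRF5 KO library (r = 0.979). WT LPS defactinib replicate 3 correlated with its group at 0.971 and 0.977. The summed level of 20 interferon-stimulated antiviral genes was 4901 CPM in the first of these libraries, against 602 and 604 CPM in the others of its group, and 2923 CPM in the second, against 767 and 578 CPM. Whether either was mislabelled or mixed with another sample was not tested, so each name stands for the library so labelled. Why they stood apart was not tested, and the main results below are given with and without them.

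The 7 genes lie on chromosome 11 of mm10 within 263.8 kb, from 82951349 to 83215154, with 5 on the plus strand and Slfn8 and Slfn9 on the minus strand. Promoter windows from RefSeq (GRCm38.p6, the same assembly as mm10), 250 bases before to 50 bases after the start site, were found for 7 of 7 members and searched on both strands for 4 motifs. The interferon-stimulated response element, searched as GAAANNGAAA, was in 3 of 7 windows (Slfn5, Slfn8 and Slfn9) and in 3.489% of 27025 windows of all genes. TGANTCA (AP-1) was in 1 of 7, in Slfn4, and in 7.933% of all windows. TTCNNNGAA (STAT) and GGGANNTTCC (NF-kB) were in 0 of 7 windows, and in 8.466% and 1.432% of all windows. None of the matches overlapped another motif, and a match is a description of letters, not a binding site. The stretches of 100 bases that hold the matches are shown because 3 of them carry the interferon element and the other belongs to Slfn4, the member least like the rest. Capitals mark the match, which in Slfn8 and Slfn9 is the same run and holds the motif on the complementary strand.
Slfn9, chr11:82991831-82991930, minus strand: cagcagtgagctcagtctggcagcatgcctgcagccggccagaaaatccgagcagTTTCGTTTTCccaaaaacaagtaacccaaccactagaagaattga
Slfn8, chr11:83020811-83020910, minus strand: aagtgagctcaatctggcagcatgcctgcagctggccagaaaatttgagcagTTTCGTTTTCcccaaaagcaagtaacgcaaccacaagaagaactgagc
Slfn5, chr11:82951902-82952001, plus strand: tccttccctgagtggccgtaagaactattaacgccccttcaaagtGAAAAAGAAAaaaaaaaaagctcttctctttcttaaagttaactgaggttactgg
Slfn4, chr11:83175086-83175185, plus strand: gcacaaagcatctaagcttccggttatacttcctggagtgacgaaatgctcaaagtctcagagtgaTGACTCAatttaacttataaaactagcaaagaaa
The first base of the match lies 45 bases before the start site in Slfn9, 48 in Slfn8, 155 in Slfn5 and 34 in Slfn4.

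Unstimulated macrophages held mainly Slfn2 and Slfn5. On the scale of CPM per kb of exon, which allows levels of different genes to be compared, Slfn2 was at 214 ± 10.4 (SD, n = 3) in unstimulated WT cells and Slfn5 at 33.0 ± 3.32. Slfn1 followed at 6.48 ± 0.658, Slfn8 at 3.47 ± 0.278, Slfn3 at 2.78 ± 0.289, Slfn9 at 2.30 ± 0.176 and Slfn4 at 0.384 ± 0.0723. The ranges of Slfn3 and Slfn9 overlapped and the other neighbours in that order did not. Unstimulated IRF5 KO cells had the same order but for Slfn9, Slfn8 and Slfn3, whose neighbouring ranges overlapped (3.21 ± 0.591, 3.03 ± 0.347 and 2.51 ± 0.242 CPM per kb). Slfn2 made up 81.1 to 82.3% of the summed level per kb of the 7 genes in unstimulated WT libraries and 81.2 to 81.7% in unstimulated IRF5 KO libraries. A gene was called where the two-sided quasi-likelihood test of edgeR gave an adjusted p under 0.05, over all genes tested, and the log2 difference exceeded 1 in size. At rest 0 of the 6 members other than Slfn9 were called between the genotypes, beside 7.31% of all genes tested; 0 of 6 had an unadjusted p under 0.05, and limma-voom called 0. DESeq2 gave an adjusted p for 4 of the 6, with none for Slfn2 and Slfn8 in any comparison, and called 0 of these 4. Slfn4 was lower in each WT library (1.27, 1.45 and 1.84 CPM) than in each IRF5 KO library (3.49, 3.19 and 2.60 CPM), a log2 difference of -1.03 ± 0.917 (SE, adjusted p = 0.563) that passed without WT LPS defactinib replicate 3 (-1.02, adjusted p = 0.00596) and where only the 2 groups compared were fitted (-1.02, adjusted p = 0.0012).

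**Figure D1:**
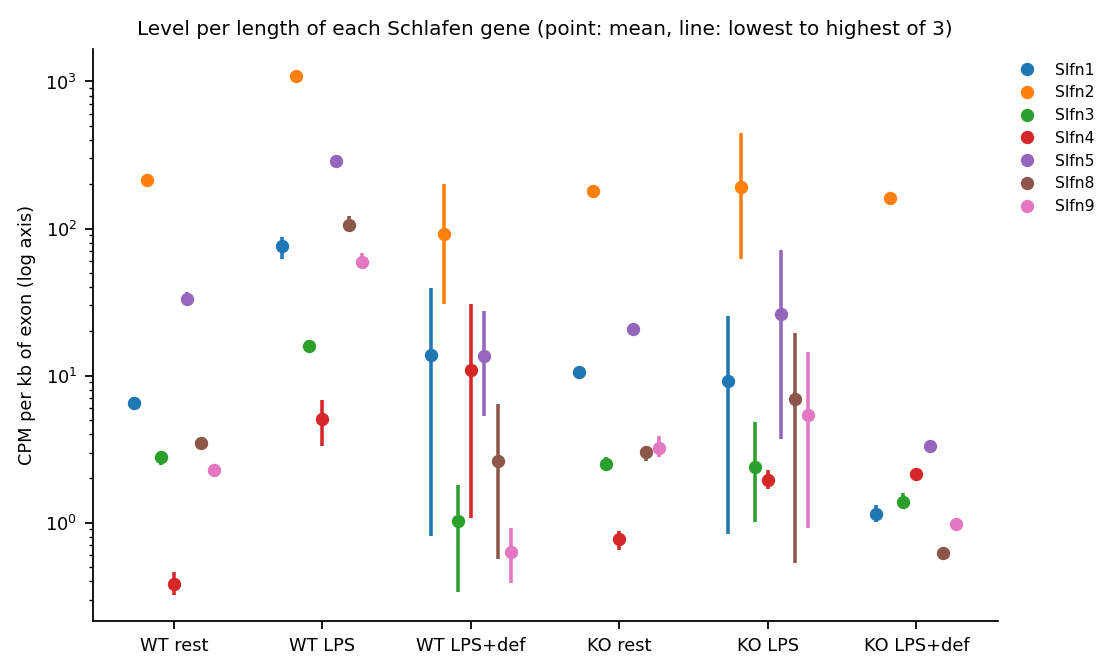
Level of each Schlafen gene in the 6 groups, in CPM per kb of exon on a log axis, with points for means and lines from the lowest to the highest of 3 libraries. Slfn2 has the highest mean in every group, and the long lines in the WT LPS defactinib and IRF5 KO LPS DMSO groups come from 1 library in each.

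In WT macrophages LPS raised 6 of 6 members other than Slfn9, beside 11.6% of all genes tested. As a description, every WT LPS DMSO library was above every unstimulated WT library for all 7 genes, Slfn9 included. No share of all genes is given beside that separation. The median log2 difference of those 6 was 3.34, against -0.0045 over all genes tested. Among the short members, Slfn1, the founding member known for slowing thymocyte growth, went from 10.95, 11.9 and 13.4 CPM to 144, 164 and 116 CPM. That is a log2 difference of 3.55 ± 1.27 (adjusted p = 0.0356). Slfn2, whose loss in mice breaks the quiescence of T cells and monocytes, went from 351, 342 and 375 CPM to 1811, 1771 and 1854 CPM, a log2 difference of 2.35 ± 0.707 (adjusted p = 0.0143).

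Of the intermediate members, Slfn3 went from 9.83, 10.2 and 8.35 CPM to 51.8, 59.99 and 52.0 CPM, a log2 difference of 2.53 ± 0.522 (adjusted p = 0.00114). Slfn4, known as a gene of activated and inflammatory myeloid cells, went from the 1.27 to 1.84 CPM given above to 20.1, 27.2 and 13.2 CPM, a log2 difference of 3.73 ± 0.964 (adjusted p = 0.0056). The spread of Slfn4 within the LPS group was wide for its level, and its groups still did not overlap.

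Of the long members, Slfn8 and Slfn9 had the largest folds of the 7 genes and Slfn5 (8.77-fold) was below Slfn4 (13.3-fold) and Slfn1 (11.7-fold). Slfn8 went from 13.3, 13.8 and 15.5 CPM to 410, 496 and 401 CPM, a log2 difference of 4.94 ± 1.17 (adjusted p = 0.00317, 30.7-fold). Slfn5 went from 194, 199 and 232 CPM to 1825, 1943 and 1713 CPM, a log2 difference of 3.13 ± 0.903 (adjusted p = 0.0111). Slfn9, given as a description with no test, was at 13.6, 14.8 and 12.7 CPM at rest and at 328, 405 and 330 CPM after LPS, a 25.8-fold difference. On the scale of CPM per kb, the order after LPS in WT was Slfn2 (1089 ± 25.0), Slfn5 (289 ± 18.2), Slfn8 (106 ± 12.8), Slfn1 (75.8 ± 13.1), Slfn9 (59.4 ± 7.42), Slfn3 (16.01 ± 1.37) and Slfn4 (5.09 ± 1.76), and of these neighbours only Slfn1 and Slfn9 overlapped. The share of Slfn2 in the summed level per kb was 63.6 to 68.8% there, while that of Slfn8 was 6.05 to 7.25%, against 1.27 to 1.36% at rest. The call of Slfn1 was lost without any 1 of the 6 libraries compared (adjusted p = 0.0513 to 0.103) and that of Slfn2 without unstimulated WT replicate 2 (adjusted p = 0.0507), so 4 to 6 members were called when 1 library was left out. With no filter on low counts 4 were called, and Slfn1 (adjusted p = 0.105) and Slfn2 (adjusted p = 0.0536) were not. DESeq2 called 4 of the 4 for which it gave an adjusted p.

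**Figure D2:**
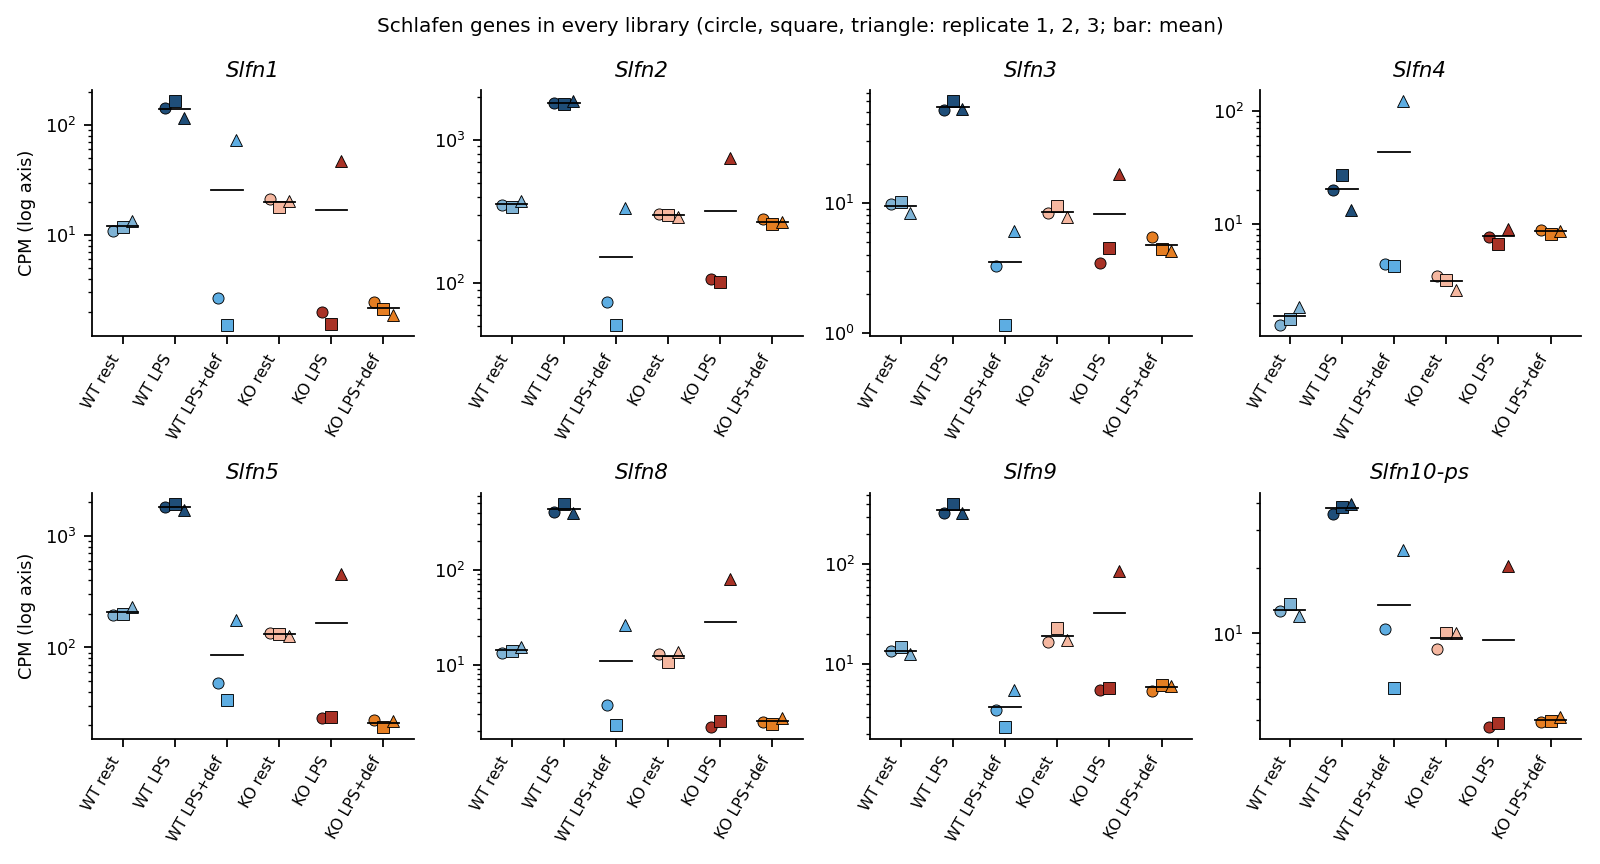
CPM of the 7 Schlafen genes and of Slfn10-ps in each of 18 libraries, on log axes, by group (rest: unstimulated; def: defactinib; KO: IRF5 KO). All 3 WT LPS DMSO libraries lie above the WT libraries at rest in every panel, and the triangle of replicate 3 stands above the other libraries of its group in IRF5 KO LPS DMSO and in WT LPS defactinib.

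In IRF5 KO macrophages the answer to LPS depended on the library. In replicates 1 and 2 of IRF5 KO LPS DMSO, 6 of the 7 genes were below all unstimulated IRF5 KO libraries and only Slfn4 was above them. In replicate 3 all 7 were above. These positions describe the members, Slfn9 included, and have no share of all genes beside them. Slfn5 was at 135, 131 and 127 CPM at rest and at 23.4, 23.7 and 454 CPM after LPS. Slfn8 was at 12.9, 10.8 and 13.5 CPM at rest and at 2.18, 2.54 and 80.3 CPM after LPS. Slfn2 was at 302, 301 and 292 CPM at rest and at 107, 103 and 747 CPM after LPS, and it shows the same split. Slfn1 was at 21.2, 17.9 and 20.4 CPM and then at 2.01, 1.56 and 47.5 CPM. Slfn3 was at 8.38, 9.47 and 7.85 CPM and then at 3.47, 4.53 and 16.6 CPM. Slfn4 alone had all 3 LPS libraries on the same side of rest, at 7.68, 6.68 and 9.002 CPM against 2.60 to 3.49 CPM. Slfn9, with no test, was at 16.7, 23.2 and 17.6 CPM at rest and at 5.53, 5.86 and 85.8 CPM after LPS.

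By the quasi-likelihood test 0 of 6 members were called for LPS in IRF5 KO, beside 13.3% of all genes tested; 0 of 6 had an unadjusted p under 0.05, and DESeq2 and limma-voom called 0. The log2 differences ran from -0.21 ± 1.16 for Slfn1 to 1.33 ± 0.882 for Slfn4. Without replicate 3, 5 of 6 were called lower, beside 16.6% of all genes tested in that fit, with log2 differences of -3.47 for Slfn1 (adjusted p = 0.0459), -1.51 for Slfn2 (0.0443), -1.10 for Slfn3 (0.0291), -2.48 for Slfn5 (0.0018) and -2.39 for Slfn8 (0.0264). Slfn4 was at 1.21 in that fit (adjusted p = 0.392), and was called higher without WT LPS defactinib replicate 3 (1.35, adjusted p = 0.00101). Those fits leave out a library that was chosen after its values were seen. The LPS by genotype difference, which selected the family, was 3.93 ± 1.03 on the log2 scale for Slfn9, 3.76 for Slfn1, 3.74 for Slfn8, 2.78 for Slfn5, 2.58 for Slfn3, 2.40 for Slfn4 and 2.25 for Slfn2. Without IRF5 KO LPS DMSO replicate 3 Slfn9 no longer led, with 7.33 for Slfn8, 7.02 for Slfn1, 6.44 for Slfn9, 5.61 for Slfn5, 3.86 for Slfn2, 3.63 for Slfn3 and 2.52 for Slfn4.

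After LPS the WT level was higher than the IRF5 KO level for 4 of 6 members, beside 14% of all genes tested called higher in WT. Every WT LPS DMSO library was above every IRF5 KO LPS DMSO library for all 7 genes, replicate 3 of IRF5 KO included. This too is a description, without a share of all genes beside it. The log2 difference was 3.94 ± 1.12 for Slfn8 (adjusted p = 0.00881), 3.45 ± 0.916 for Slfn5 (0.00589), 2.73 ± 0.528 for Slfn3 (0.000662) and 2.51 ± 0.712 for Slfn2 (0.00882). Slfn1 had 3.05 ± 1.24 (adjusted p = 0.0519) and Slfn4 had 1.37 ± 0.864 (adjusted p = 0.194). Without IRF5 KO LPS DMSO replicate 3 the difference of Slfn8 was 7.53, that of Slfn5 6.28, that of Slfn1 6.30, that of Slfn2 4.11 and that of Slfn3 3.77, and Slfn1 was then called (adjusted p = 0.00271). Slfn1 was also called without any 1 WT LPS defactinib library, as was Slfn4 without replicate 3 of that group (adjusted p = 0.000139). Where only the 2 groups compared were fitted, 2 of the 6 were called, Slfn3 and Slfn4, and the calls of Slfn2, Slfn5 and Slfn8 were lost (adjusted p = 0.0637, 0.0792 and 0.0838). DESeq2 called Slfn1, Slfn3 and Slfn5 of the 4 with an adjusted p. Without that IRF5 KO library 20.7% of all genes tested were called higher in WT. Slfn9, with no test, differed by 3.45 with all libraries and by 5.96 without that replicate.

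With defactinib before LPS, 4 of 6 members fell in WT macrophages, beside 18.6% of all genes tested called lower. The median log2 difference of the 6 was -3.76, against 0.09 over all genes tested. Slfn8 was at 3.77, 2.31 and 26.4 CPM in the WT LPS defactinib libraries, a log2 difference from DMSO of -5.33 ± 1.20 (adjusted p = 0.00161). Slfn5 was at 48.5, 33.8 and 175 CPM, a log2 difference of -4.41 ± 0.959 (adjusted p = 0.00125). Both were far under the 401 to 496 CPM and 1713 to 1943 CPM of the DMSO libraries, and replicate 3 was the highest of the defactinib libraries.

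Slfn3 was at 3.30, 1.15 and 6.11 CPM with defactinib, a log2 difference of -3.96 ± 0.563 (adjusted p = 3.87e-05). Slfn2 was at 74.3, 51.1 and 335 CPM, a log2 difference of -3.56 ± 0.745 (adjusted p = 0.00094). Each of these 4 calls was kept without any 1 of the 18 libraries, while DESeq2 called 2, Slfn3 and Slfn5, and gave no adjusted p for the other 2. Without replicate 3, 19.4% of all genes tested were called lower, and the differences were -7.15 for Slfn8, -5.46 for Slfn5, -4.60 for Slfn3 and -4.84 for Slfn2. Slfn1 was at 2.65, 1.52 and 73.1 CPM, a log2 difference of -2.46 ± 1.21 (adjusted p = 0.0961) that was -6.07 without replicate 3 (adjusted p = 0.00114) and was also called without IRF5 KO LPS DMSO replicate 3 (adjusted p = 0.0448). With all libraries Slfn1 was called by limma-voom (-4.44, adjusted p = 0.00114) and with a replicate block in edgeR (-3.81, adjusted p = 0.0192), but not by DESeq2.

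Set against the WT LPS DMSO libraries, Slfn4 departed from the others in 1 library. It was at 4.37 and 4.23 CPM in WT LPS defactinib replicates 1 and 2 and at 121 CPM in replicate 3, its highest level in the 18 libraries, against 13.2 to 27.2 CPM with DMSO. Its log2 difference was 1.10 ± 0.848 (adjusted p = 0.279) with all libraries and -2.21 (adjusted p = 1e-05) without replicate 3. Slfn9, with no test, was at 3.51, 2.33 and 5.47 CPM with defactinib, a log2 difference of -6.56, and it was the member that moved least with replicate 3 (-6.91 without it). The ratio of Slfn9 to Slfn8, per kb, was 0.548 to 0.564 in the WT LPS DMSO libraries, 0.639 and 0.693 in the first 2 defactinib libraries and 0.142 in replicate 3.

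In IRF5 KO macrophages 0 of 6 members were called for defactinib against DMSO, beside 0.919% of all genes tested. An unadjusted p under 0.05 was found for 3 of 6 in the quasi-likelihood test. That threshold is looser than the one behind the 0.919%, and its share of all genes is not given. DESeq2 called 1 and limma-voom called 0. Of all 15663 genes they called 521 and 95. The 3 IRF5 KO LPS defactinib libraries lay close together: Slfn5 was at 22.4, 19.2 and 21.9 CPM, Slfn8 at 2.47, 2.37 and 2.76 CPM and Slfn1 at 2.44, 2.11 and 1.89 CPM. Replicates 1 and 2 of IRF5 KO LPS DMSO were near these levels and replicate 3 was above them. The log2 difference was -2.98 ± 0.902 for Slfn5 (adjusted p = 0.0753) and -3.49 ± 1.14 for Slfn8 (adjusted p = 0.0911), and without that replicate they were -0.15 and 0.10. Without replicate 1 or 2 instead, both genes were called, at adjusted p of 0.0231 and 0.0245 for Slfn5 and 0.0299 and 0.0328 for Slfn8. Slfn2 was at 279, 258 and 268 CPM with defactinib, above the 107 and 103 CPM of DMSO replicates 1 and 2 and below the 747 CPM of replicate 3.

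The difference between the genotypes in the effect of defactinib passed the test for 2 of 6 members, Slfn2 and Slfn3, beside 12.3% of all genes tested in that direction. It was -3.31 ± 0.978 on the log2 scale for Slfn2 (adjusted p = 0.0153) and -3.15 ± 0.734 for Slfn3 (adjusted p = 0.00366). Both fell in WT, whereas in IRF5 KO the log2 difference with defactinib was -0.25 for Slfn2 (adjusted p = 0.859) and -0.80 for Slfn3 (adjusted p = 0.361). Both calls were kept without any 1 library. That of Slfn2 was lost where only the groups compared were fitted (adjusted p = 0.0546) and with no filter on low counts (adjusted p = 0.0561), and DESeq2, with no adjusted p for it, called Slfn3 alone. Slfn5 (-1.43, adjusted p = 0.365) and Slfn8 (-1.85, adjusted p = 0.348) passed without IRF5 KO LPS DMSO replicate 3, at -4.26 (adjusted p = 0.000272) and -5.44 (0.00129). Slfn4 had 0.96 (adjusted p = 0.558) with all libraries and -2.33 (adjusted p = 9.04e-05) without WT LPS defactinib replicate 3. The defactinib comparisons share their DMSO libraries with the LPS comparisons above.

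**Figure D3:**
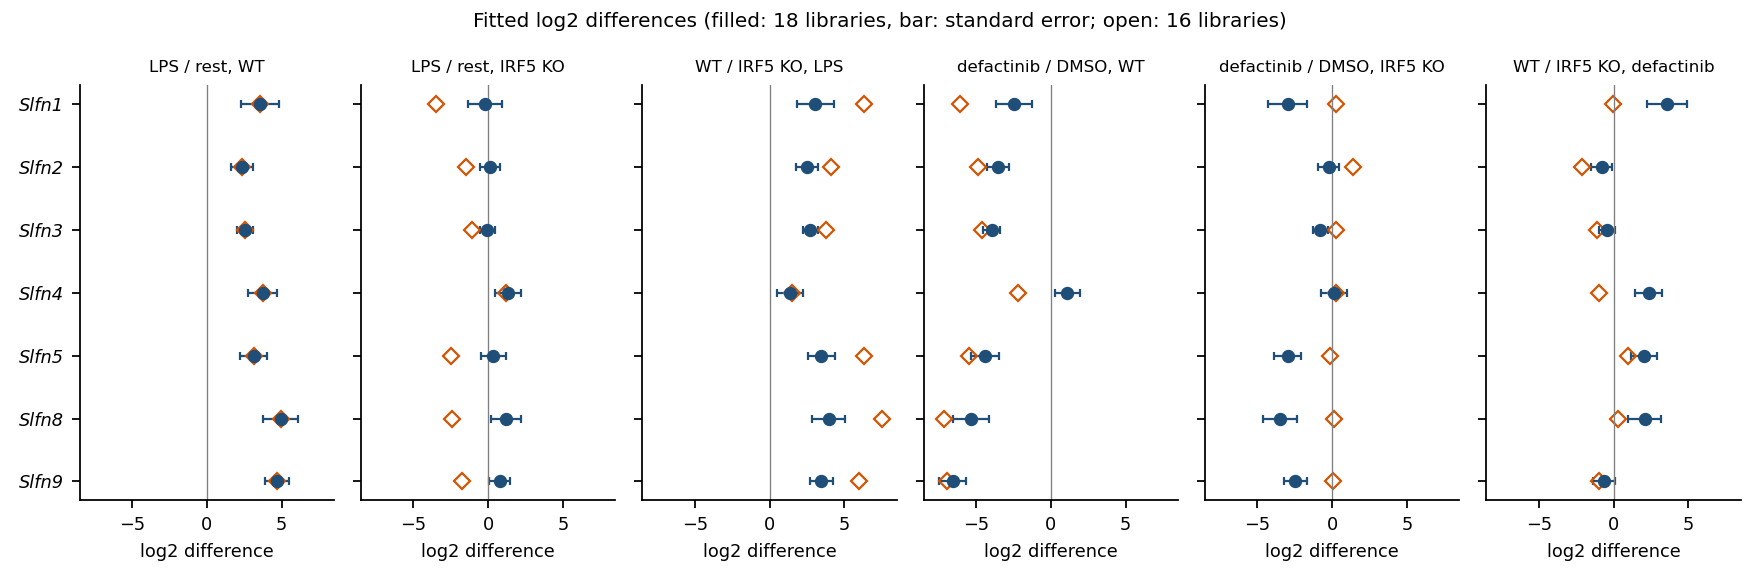
Fitted log2 differences of the 7 genes in 6 comparisons; filled points with standard errors are from all 18 libraries, and open diamonds from 16 libraries without IRF5 KO LPS DMSO replicate 3 and WT LPS defactinib replicate 3. The symbols coincide for LPS in WT, and for LPS in IRF5 KO they fall on opposite sides of 0 for Slfn2, Slfn5, Slfn8 and Slfn9.

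Under LPS with defactinib the genotypes were compared with all 7 members in the test, since none of these libraries entered the choice of Slfn9. Of the 7, 1 was called higher in WT, beside 8.45% of all genes tested. That was Slfn1 (log2 difference 3.58 ± 1.32, adjusted p = 0.0465), and the call rested on WT replicate 3 at 73.1 CPM; the difference was -0.03 without it (adjusted p = 0.987), and the call was kept in 5 of the 18 fits that left out 1 library. Slfn9 was at 5.42, 6.20 and 6.03 CPM in IRF5 KO and at the 2.33 to 5.47 CPM given above in WT, a log2 difference of -0.64 (adjusted p = 0.54). Without both libraries that stood apart, a fit added after the values were seen, Slfn9 was called lower in WT (-1.005, adjusted p = 0.000152). Slfn4 was at 8.87, 8.17 and 8.63 CPM in IRF5 KO, a log2 difference of 2.34 ± 0.884 (adjusted p = 0.0508) that turned to -0.97 without WT replicate 3. Slfn2 had -0.81 (adjusted p = 0.378), and without that replicate it was called lower in WT, at -2.08 (adjusted p = 0.0251). Other calls came with 1 library left out: Slfn5 without any 1 IRF5 KO LPS DMSO library (adjusted p = 0.00302 to 0.0458, against 0.0834 with all), Slfn8 without replicate 3 of that group (0.0274, against 0.154) and Slfn4 without WT LPS defactinib replicate 1 or 2 (0.00869 to 0.0097).

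Against their own unstimulated libraries, most members lay below rest in CPM after LPS with defactinib. With all libraries in the fit, the numbers called lower were near the shares of all genes tested. In all 3 IRF5 KO LPS defactinib libraries and in WT LPS defactinib replicates 1 and 2, Slfn4 was above every library at rest of its genotype and the other 6 genes were below. In WT replicate 3, Slfn1, Slfn4 and Slfn8 were above and the other 4 below. Such positions are a description, without a share of all genes. In WT, 1 of 6 members was called higher, beside 9.10% of all genes tested, and 1 lower, beside 15.8%. They were Slfn4 (log2 difference 4.83 ± 1.00, adjusted p = 0.00124, and 1.52 without replicate 3) and Slfn3 (-1.43 ± 0.521, adjusted p = 0.0315). The call of Slfn3 was lost without unstimulated WT replicate 1 or 2 or without WT LPS defactinib replicate 1 or 2 (adjusted p = 0.0665 to 0.11). Slfn2 was called lower without WT LPS defactinib replicate 3 (-2.50, adjusted p = 0.00734) and Slfn5 without IRF5 KO LPS DMSO replicate 3 (-1.29, adjusted p = 0.0242). In IRF5 KO, 1 of 6 was called lower, beside 16.2%: Slfn5, at -2.63 ± 0.889 (adjusted p = 0.0217), lost without any 1 of the 3 defactinib libraries (adjusted p = 0.0584 to 0.0658). Slfn1 had -3.20 ± 1.31 there (adjusted p = 0.0506) and was called in 6 of the 18 fits that left out 1 library, namely those without each WT LPS defactinib and each IRF5 KO LPS DMSO library. Slfn4 was called higher there without WT LPS defactinib replicate 3 (1.47, adjusted p = 0.000172) and Slfn8 lower without IRF5 KO LPS DMSO replicate 3 (-2.29, adjusted p = 0.0132).

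Without both libraries that stood apart, which is a fit added after the values were seen and whose p-values are for that reason only descriptive, all 6 members other than Slfn9 were called for LPS in WT, for LPS in IRF5 KO (Slfn4 higher and the other 5 lower), between the genotypes after LPS, for defactinib in WT and for the difference between the genotypes in the effect of defactinib. That fit also called more of all genes tested: 12.9% higher for LPS in WT, 9.84% higher and 17% lower for LPS in IRF5 KO, 21% higher in WT after LPS, 20.7% lower for defactinib in WT and 20.6% lower for the difference. For LPS with defactinib against rest it called all 6 in WT and 4 in IRF5 KO, with Slfn4 higher in both (beside 9.19% and 8.88% of all genes) and the other members called being lower (beside 17.4% and 17%). For defactinib in IRF5 KO 1 member was called, Slfn2, which was higher with defactinib by 1.36 on the log2 scale, beside 0.932% of all genes. Between the genotypes under LPS with defactinib Slfn2 (-2.10), Slfn3 (-1.08) and Slfn9 (-1.005) were called lower in WT, beside 10.8%. Slfn1 was at -0.055 there.

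Interferon-stimulated antiviral genes moved in the same libraries. Of 20 such genes, 20 rose with LPS in WT, beside 11.6% of all genes tested, and 15 fell with defactinib in WT, beside 18.6% (19 without WT LPS defactinib replicate 3, beside 19.4%). After LPS 19 were higher in WT than in IRF5 KO, beside 14%. With LPS in IRF5 KO 10 rose, beside 7.07%, and without replicate 3 of that group 1 rose and 1 fell, beside 9.64% and 16.6%, with a median log2 difference of 0.14, whereas the Schlafen genes other than Slfn4 were then lower than at rest. Summed CPM of the 20 genes was 660 to 806 in unstimulated WT, 19564 to 23595 in WT LPS DMSO and 645 to 660 in IRF5 KO LPS defactinib. Of 14 genes of the type I interferon pathway, 7 rose with LPS in WT, beside 11.6% of all genes tested, and 7 fell with defactinib, beside 18.6% (10 without both libraries that stood apart). Of 10 RNA-cleaving enzymes, a list fixed because Schlafen proteins act on RNA, 4 rose with LPS and 3 fell with defactinib in WT, with medians of 0.25 and -0.26 on the log2 scale, and the numbers were the same without both libraries. The shares of all genes tested are the same 11.6% and 18.6%, so that 3 of 10 is near the background. Zc3h12a, which encodes the RNase Regnase-1, was at 26.4 ± 4.88 CPM at rest, 296 ± 13.8 CPM after LPS and 19.9 ± 2.95 CPM after LPS with defactinib in WT.

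**Figure D4:**
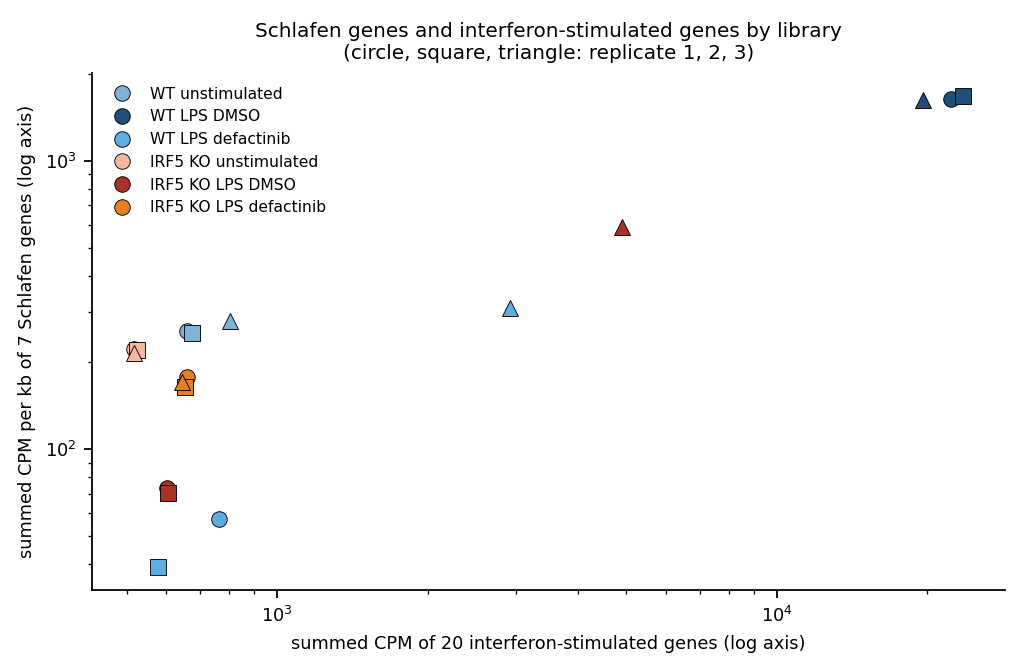
Each point is a library, with the summed CPM of 20 interferon-stimulated antiviral genes on the x axis and the summed CPM per kb of the 7 Schlafen genes on the y axis, both on log axes. The Schlafen sum was 1619 to 1673 in WT LPS DMSO and 39.2 and 57.3 in the lowest 2 libraries, WT LPS defactinib replicates 2 and 1, which lie well under the unstimulated libraries at a like level of interferon-stimulated genes.

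Across the 18 libraries, which fall into groups and so are not independent points, 6 of the genes followed each other and Slfn4 did not. Pearson's r of log2 CPM was 0.855 to 0.981 over the 15 pairs without Slfn4, highest for Slfn5 with Slfn8, and 0.239 to 0.399 over the 6 pairs with it. Over 16 libraries, without the pair that stood apart, it was 0.860 to 0.981 and 0.251 to 0.506. Over 10916 genes whose log2 CPM averaged 1 or more, the pattern most like Slfn8 was that of Parp14 (r = 0.997), followed by Parp9 (0.993) and Rnf31 (0.989). Slfn5 was most like Gm12250 (0.991), Parp14 (0.99) and Rnf31 (0.989). Slfn9 was most like Phlpp2 (0.989), Mier3 (0.989) and Mtmr14 (0.987), and Slfn3 most like Naa25 (0.991), Avl9 (0.987) and Mier3 (0.982). Slfn2 was most like Znfx1 (0.979), Src (0.979) and Snx16 (0.977), and Slfn1 most like Pml (0.975), Inpp5b (0.973) and Trim34a (0.972). For Slfn4 the closest were Bst2 (0.927), Ms4a6c (0.924) and Map4k4 (0.923). Which genes came closest depended on the libraries. Without WT LPS defactinib replicate 3, 0 of the 3 genes named were again among the closest 3 for Slfn1, Slfn2 and Slfn4, 1 for Slfn5 and 2 each for Slfn3, Slfn8 and Slfn9, and for Slfn4 the closest were then Marcksl1 (0.973), Adgrg6 (0.969) and Tra2a (0.965). Parp14 was the closest to Slfn8 with and without that library (0.997 in both).

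Of the other family genes, Slfn14 and Slfnl1 were under 1 CPM in every library and were not tested. Slfn10-ps, a pseudogene between Slfn8 and Slfn2, was at 12.8 ± 0.815 CPM in unstimulated WT and at 37.9 ± 2.03 CPM after LPS (log2 difference 1.56 ± 0.552, adjusted p = 0.0328). It fell with defactinib in WT (log2 difference -1.49, adjusted p = 0.0314), also without WT LPS defactinib replicate 3 (-2.23, adjusted p = 0.0052). Slfn9 transcripts shared 87 of 5963 windows of 150 bases (1.459%) exactly with Slfn10-ps, and no other member shared such a window with another family gene, although Slfn8 and Slfn9 were 92.56% identical over 3496 aligned bases and Slfn3 and Slfn4 92.89% over 1406. Slfn5os, an antisense gene that shares 559 exon bases with Slfn5, had 0 to 33 counts per library, and counting was by strand. Mir7679, in an intron of Slfn9 on its strand, had 0 to 32 counts, and reads from the host transcript cannot be told apart from it. Among 32 other tested genes within 500 kb of the cluster, 11 rose and 0 fell with LPS in WT, beside 11.6% of all genes tested called higher, and 4 of the 11 (Slfn5os, Mir7679, Gm11425 and Slfn10-ps) overlap or lie between the members. With defactinib in WT 9 fell, beside 18.6% of all genes, and 2 rose, beside 10.4%. Without both libraries that stood apart 11 fell, beside 20.7%, and 4 rose, beside 11.8%. Those that rose with LPS include the chemokine genes Ccl5 (5.32 on the log2 scale, adjusted p = 3.48e-05), Ccl4 (2.71, adjusted p = 3.2e-07) and Ccl3 (1.68, adjusted p = 9.02e-05).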

How the data were processed

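RNA of BMDMs was measured in 18 libraries, in 6 groups of 3, with groups taken from the labels. The authors aligned paired reads to mm10 with STAR and deposited raw counts of uniquely mapped pairs per Ensembl gene, made by featureCounts 1.6.3 with strand, per the file headers and the methods of the study. These counts are not normalized. A table of Ensembl names gave a symbol for 50376 of 50600 genes. No column was left out. The sources used here call the libraries biological replicates, and the p-values measure the spread between them.

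Counts were tested in R 4.3.3 with edgeR 4.0.16 (glmQLFit and glmQLFTest, two-sided), with TMM scaling, filterByExpr and 1 mean per group fitted to all 18 libraries, and with Benjamini-Hochberg adjustment over the 15663 genes tested in each comparison. Calls required an adjusted p below 0.05 together with a log2 difference larger than 1 in size. Shares of all genes belong to this fit unless another fit is named. The standard error (SE) is the size of the log2 difference divided by the square root of F. CPM use TMM-scaled library sizes, and CPM per kb divide by the exon length in the table. Log2 CPM for correlations had a prior count of 2.

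The members, gene lists and alternatives were chosen with earlier results of these data known. Named genes were the 7 members, Irf5, Ptk2b, Ptk2, the other Schlafen genes, the 3 genes most abundant in a list, genes overlapping a member, called genes within 500 kb and, for each member, the 3 genes of highest Pearson's r; only those a result turns on are given. The fit was also run on simulated counts with the same spread setting for every gene and no library that stood apart. That run therefore does not show how the fit behaves with such libraries. Alternatives were DESeq2 1.42.0, limma-voom 3.58.1, other scaling and filters, a replicate block and leaving out libraries. Transcript windows came from GENCODE M21.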

Additional observations from a re-analysis of the deposited data

Results flagged for a closer look

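The effect of defactinib after LPS differed between WT and IRF5 KO macrophages for Slfn2, by -3.31 on the log2 scale, and for Slfn3, by -3.15, in the interaction test of edgeR (adjusted p = 0.0153 and 0.00366). Slfn2 was lower with defactinib in 3 of 3 WT libraries, and in IRF5 KO its 3 libraries lay between the DMSO replicates. Leaving out any 1 of the 18 libraries gave -4.92 to -2.86 for Slfn2 and -4.21 to -2.71 for Slfn3. DESeq2 called Slfn3, gave no adjusted p for Slfn2 and called 1 of the 4 members for which it gave one, and limma-voom called 4 of 6. Of all 15663 genes in that comparison, DESeq2 called 3729 and limma-voom 3586.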

How the results depend on the processing

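Values are numbers of members called, of 6 (of 7 for the genotypes under LPS with defactinib). Most of these fits have no share of all genes beside them, so the numbers describe only how the members' calls moved. Leaving out each library in turn gave 4 to 6 for LPS in WT, 0 to 5 for LPS in IRF5 KO, 0 to 1 for the genotypes at rest, 4 to 6 for the genotypes after LPS, 4 to 6 for defactinib in WT, 0 to 2 for defactinib in IRF5 KO, 0 to 3 for the genotypes under LPS with defactinib, 1 to 3 for LPS with defactinib in WT, 0 to 3 for the same in IRF5 KO and 2 to 4 for the difference in the effect of defactinib. Leaving out both libraries that stood apart, an alternative chosen after seeing the data, gave 6 for LPS in IRF5 KO, 1 at rest, 6 after LPS, 6 for defactinib in WT, 1 for defactinib in IRF5 KO, 3 under LPS with defactinib, 6 for LPS with defactinib in WT, 4 for the same in IRF5 KO and 6 for the difference in the effect of defactinib. The 3 under LPS with defactinib were Slfn2, Slfn3 and Slfn9, all lower in WT, whereas Slfn1, the 1 called with all libraries, was higher in WT. That fit called 9.28% of all genes at rest and 19.8% under LPS with defactinib, with 10.8% lower in WT. Fitting only the groups compared gave 1 for LPS in IRF5 KO, 1 at rest, 2 after LPS, 4 for LPS with defactinib in IRF5 KO and 1 for the difference. DESeq2 gave an adjusted p for 4 members (none for Slfn2, Slfn8 and Slfn9, which are left out of its numbers), and of these it called 1 for defactinib in IRF5 KO, 3 under LPS with defactinib and 2 for LPS with defactinib in IRF5 KO. Of all 15663 genes DESeq2 called 521, 2820 and 3680 in these comparisons. Limma-voom gave 0 under LPS with defactinib, 2 for LPS with defactinib in IRF5 KO and 4 for the difference. It called 2670, 3768 and 3586 of all genes in these comparisons. With no filter on low counts the numbers were 4 for LPS in WT, 0 under LPS with defactinib, 1 and 0 for LPS with defactinib in WT and IRF5 KO and 1 for the difference. Scaling by library size alone, and a filter of 5 CPM in 3 libraries, each gave 2 under LPS with defactinib and 2 for LPS with defactinib in IRF5 KO. The first of these moved the median log2 difference of all genes from -0.0045 to -0.38 for LPS in WT and from 0.09 to 0.29 for defactinib in WT.

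Replicate numbers were shared across groups, and over 45 pairs of libraries with the same number the median correlation of residuals was 0.00455, with 4 above 0.1. Pairs with unlike numbers were not compared, so these values cannot tell whether a number marks marrow of the same mouse. With the replicate block the number was 0 under LPS with defactinib and 2 for LPS with defactinib in IRF5 KO, and elsewhere it stayed within 1.5 times the number without pairing.

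Log2 differences of 18 tested results changed sign, 15 times with a call in either fit and 35 times with none. Leaving out 1 library at a time gave, for LPS in IRF5 KO, -3.47 to 0.34 for Slfn1, -1.51 to 0.53 for Slfn2, -1.10 to 0.32 for Slfn3, -2.48 to 0.88 for Slfn5 and -2.39 to 1.76 for Slfn8. For defactinib in IRF5 KO it gave -3.54 to 0.27 for Slfn1, -0.69 to 1.36 for Slfn2, -1.18 to 0.24 for Slfn3 and -4.05 to 0.10 for Slfn8, and for defactinib in WT -2.21 to 1.66 for Slfn4. Between the genotypes under LPS with defactinib it gave -0.033 to 4.15 for Slfn1, -1.07 to 0.0038 for Slfn3 and -0.97 to 2.90 for Slfn4. For LPS with defactinib in WT it gave -2.52 to 1.66 for Slfn1 and -2.21 to 0.097 for Slfn8, and for the difference in the effect of defactinib -3.06 to 1.12 for Slfn1 and -2.33 to 1.54 for Slfn4. Without both libraries that stood apart the values that turned were -1.51 (Slfn2), -2.48 (Slfn5) and -2.40 (Slfn8) for LPS in IRF5 KO, 0.27 (Slfn1), 1.36 (Slfn2), 0.25 (Slfn3) and 0.10 (Slfn8) for defactinib in IRF5 KO, -2.23 (Slfn4) for defactinib in WT, -0.055 (Slfn1) and -0.99 (Slfn4) under LPS with defactinib, -2.53 (Slfn1) for LPS with defactinib in WT, and -6.35 (Slfn1) and -2.48 (Slfn4) for the difference. Limma-voom turned Slfn2 (-0.55), Slfn5 (-1.01) and Slfn8 (-0.53) for LPS in IRF5 KO, Slfn2 (0.40) for defactinib in IRF5 KO, Slfn4 (-0.61) for defactinib in WT, Slfn1 (-0.90) for LPS with defactinib in WT, and Slfn1 (-2.98) and Slfn4 (-0.74) for the difference. The replicate block turned Slfn2 (-0.37) and Slfn5 (-0.40) for LPS in IRF5 KO, Slfn2 (0.21) for defactinib in IRF5 KO, Slfn1 (-0.12) for LPS with defactinib in WT and Slfn1 (-1.998) for the difference. Library size alone turned Slfn2 (-0.052) for LPS in IRF5 KO and Slfn4 (-0.0031) for defactinib in IRF5 KO. Over all alternatives, 1949 log2 differences kept direction and side of the threshold or, where untested, moved by less than their spread, 79 newly passed the threshold, 39 no longer did, 50 turned and 18 untested ones moved by more than their spread. Untested values changed sign 5 times. The cause was not tested. Groups hold 3 libraries each, and leaving out 1 changed several of these calls; the effect of depth was not tested.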
